A study of Homo sapiens with 6 samples.

Results

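Oxidative phosphorylation genes encode the respiratory chain and ATP synthase of the inner mitochondrial membrane. The members described here were all protein-coding genes of the deposited table whose names begin as the structural subunits of complexes I to V do, together with the cytochrome genes CYC1 and CYCS. This rule used gene names only and gave 98 of the 33981 genes in the table. Of these, 85 are encoded in the nucleus and 13 in the mitochondrial genome. The nuclear members comprised 36 genes of complex I, 4 of complex II, 10 of complex III, 15 of complex IV (NDUFA4 included), 19 of complex V and CYCS. The mitochondrial members comprised 7 genes of complex I, 1 of complex III, 3 of complex IV and 2 of complex V.

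Complexes I and II pass electrons from NADH and succinate to ubiquinone, complex III passes them on to cytochrome c, and complex IV transfers them to oxygen. Complexes I, III and IV pump protons as they do so, and complex V, the ATP synthase, uses the returning protons to make ATP. All of these complexes except complex II contain subunits from both genomes, the mitochondrial ones being transcribed within the organelle as long polycistronic precursors, and leukemic myeloid cells are known to depend on this machinery.

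The measurements came from THP-1, a monocytic cell line from an acute myeloid leukemia, 4 days after lentiviral infection. The control group carried a scrambled shRNA (samples C1, C3 and C4) and the knockdown group an shRNA against NFIC, a transcription factor of the nuclear factor I family (samples N1, N2 and N3). Both groups were infected with GFP-marked vectors and sorted for GFP, although the study's methods describe the control vector as GFP only. Every sample came from the same cell line, a single NFIC shRNA was sequenced, and the labels do not say whether replicates were separate cultures, so the p-values below measure the spread between these samples, which may be technical.

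Total counts lay between 20369543 and 24809720 per sample, and 3 counts, the smallest amount taken as detected, corresponded to between 0.122 and 0.146 CPM, the count per library scaled to the same library size. NFIC was expressed at 42.1, 41.4 and 42.2 CPM in the scrambled samples and at 19.4, 22.3 and 21.4 CPM with NFIC shRNA, 50.1% of the scrambled mean. All 10 monocytic markers passed the filter on low counts, with a summed level of 1915 to 2091 CPM in scrambled and 1990 to 2104 CPM in NFIC shRNA samples, 3 of them higher and 5 lower. Markers of T and NK cells summed to at most 5.55 CPM, of B and plasma cells to at most 5.08, of epithelium to at most 1.14 and of erythroid cells to at most 0.173 CPM, with CD3D at or under 0.04 CPM, whereas the fibroblast and endothelial list reached 263 CPM through PECAM1. Samples C3 and N3 stood apart from the others on the second principal component, which carried 7.37% of the variance. In bulk samples a smaller number of cells of a type and less RNA per cell cannot be told apart.

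Nuclear-encoded members moved in both directions, and the strongest changes were decreases. Of the 85, 81 passed the filter on low counts and entered the quasi-likelihood test of edgeR over all 19182 genes that passed, where a gene was called at an adjusted p under 0.05. Of these 81, 18 (22.2%) were higher and 25 (30.9%) lower with NFIC shRNA. Among all genes tested 29.6% were called higher and 30.3% lower, among protein-coding genes 33.0% and 32.4%, and among protein-coding genes whose mean log2 CPM was 5 or more, 48.2% and 26.1%. At a log2 fold change of at least 0.5 in size, 8 nuclear members (9.88%) were lower and 0 higher, against 19.9% lower and 13.6% higher of all genes tested. The median log2 fold change of the 81 was 0.01, beside -0.01 over all genes tested and 0.13 over the well-expressed protein-coding genes. The groups did not overlap for 48 of the 81 (59.3%), against 65.2% of all genes tested. The balance of directions depended on the scaling, with 12 nuclear members higher (14.8%) and 32 lower (39.5%) under upper quartile normalization, against 25.8% and 33.9% of all genes, and 24 higher (29.6%) and 23 lower (28.4%) when scaled by total counts, against 30.8% and 29.1% of all genes.

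The mitochondrially encoded members that were called were all higher, by small amounts. All 13 passed the filter, 6 (46.2%) were called higher, 0 lower and 7 not called, and the median of the 13 log2 fold changes was 0.12, with a range from -0.06 to 0.27. Under upper quartile normalization 3 were called higher. At an added log2 fold change of 0.5, 0 of them were called. The share called higher is close to the 48.2% of the well-expressed protein-coding genes.

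**Figure D1:**
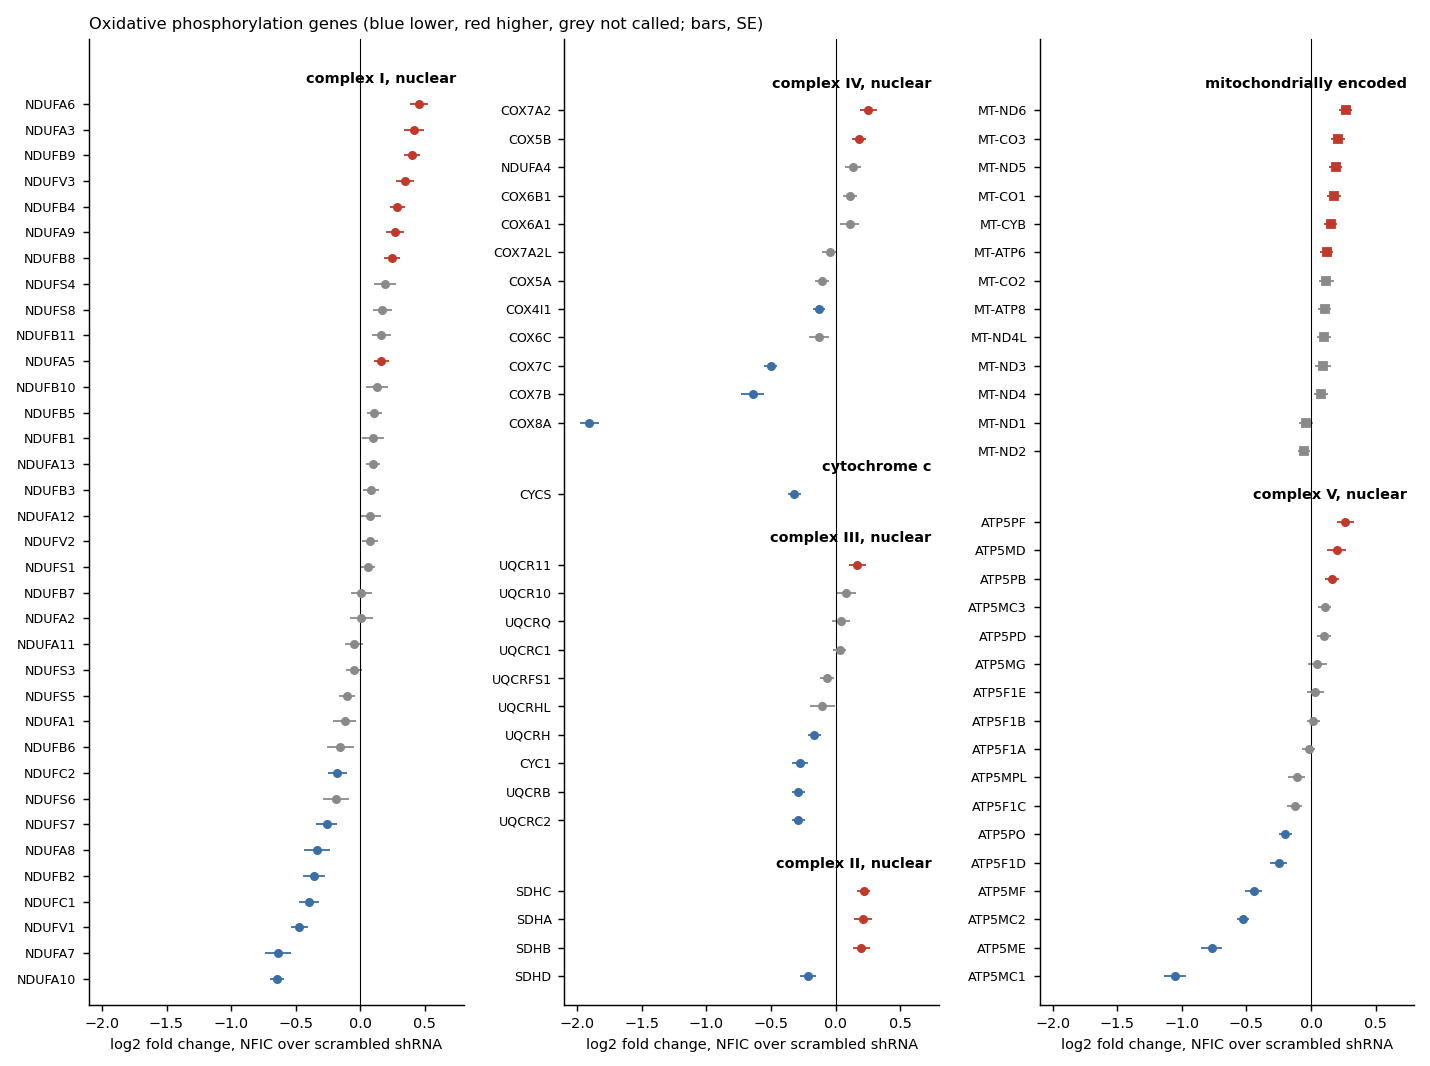
Log2 fold change of NFIC over scrambled shRNA (x axis) for the members tested, by complex, with circles for nuclear and squares for mitochondrial genes and bars for the standard error; the readthrough gene ATP5MF-PTCD1 and 1 gene not reported here are left out. COX8A lies farthest to the left at -1.91 and no member lies above 0.45, while the mitochondrial genes lie between -0.06 and 0.27.

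Counting over gene bodies limits some of these values. Of the nuclear members, 40 share exon bases in GENCODE release 44 with another gene that had 10 or more counts in a library. The authors counted on other gene models, from Ensembl, so these shares only approximate the overlaps in the counts. For example, NDUFB9 has 16591 exon bases in release 44 and a deposited length of 4106, and NDUFC1 has 2994 and 1941. Since the library kit is not described as strand-specific, reads of overlapping genes on opposite strands cannot be told apart. Reads over same-strand genes appear to have counted for each of them, so such neighbours need not be separate measurements. The part of these shared reads in the fold changes was not tested, and overlaps of at least 10% of a called member's exon bases are given beside it.

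Complex IV, cytochrome c oxidase, held the member with the lowest fold change. COX8A (ENSG00000176340, chromosome 11, 63974620 to 63976543 on the plus strand of GRCh38), the ubiquitous isoform of a small membrane subunit, was measured at 87.5, 98.0 and 86.3 CPM in C1, C3 and C4 and at 23.0, 26.5 and 22.8 CPM in N1, N2 and N3. All knockdown samples lay far below all controls. The mean fell from 90.6 ± 6.42 to 24.1 ± 2.06 CPM (SD, n = 3), 26.6% of control, with a log2 fold change of -1.91 (SE 0.07, edgeR adjusted p = 2.21e-12). Expressed per length as the deposited FPKM, COX8A was the nuclear member with rank 3 in scrambled samples (181 ± 12.8 FPKM) and rank 15 with NFIC shRNA (48.8 ± 4.08 FPKM). Ranks by FPKM depend on the exon-union length, which is 494 bases for COX8A and 10908 for ATP5F1A, a member with 412 CPM and rank 24 in scrambled samples. A gene on the same strand, AP000721.1, covers 35.4% of the exon bases of COX8A, had 721 to 2477 counts against 475 to 2411 for COX8A, and was lower too, with a log2 fold change of -1.38.

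COX7B and COX7C, which encode further small subunits of the complex, were also lower. COX7C (chromosome 5) had 168, 174 and 168 CPM in scrambled and 121, 121 and 118 CPM in NFIC shRNA samples, which is a log2 fold change of -0.50 (SE 0.05, edgeR adjusted p = 9.66e-08). COX7B (chromosome X) had 33.9, 38.8 and 30.9 CPM against 19.9, 24.0 and 22.3 CPM, a log2 fold change of -0.64 (SE 0.09, edgeR adjusted p = 1.11e-05). Neither gene showed overlap between the groups.

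The other tested nuclear members of complex IV changed less. COX7A2 rose from 188 ± 16.7 to 223 ± 16.0 CPM (log2 fold change 0.25, edgeR adjusted p = 0.00321), and COX5B, a subunit at the matrix side, rose from 146 ± 4.88 to 166 ± 9.13 CPM (0.18, edgeR adjusted p = 0.00713). The call of COX5B was lost without C4 (adjusted p = 0.0516). COX4I1, which encodes a regulatory subunit of the complex, was lower by a small amount, 237 ± 1.94 against 217 ± 6.98 CPM (log2 fold change -0.13, edgeR adjusted p = 0.0298), and this call was lost in 5 of the 6 fits that left out a sample, all but that without N2, in DESeq2 (adjusted p = 0.071) and when the replicate number was a block (adjusted p = 0.0546). COX5A (-0.10), COX6A1 (0.11), COX6B1 (0.11), COX6C (-0.13), COX7A2L (-0.05) and NDUFA4 (0.13) were not called.

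For the isoform sets of complex IV, only the ubiquitous isoforms passed the filter on low counts. The isoforms COX7A1, COX6B2 and COX8C had 4 to 9, 2 to 11 and 0 to 2 counts per library, and COX4I2, COX6A2 and COX7B2 have no row in the table. In scrambled samples COX7A2 was at 96.4 FPKM and COX7A1 at 0.549 FPKM, while COX6B1 was at 65.9 and COX6B2 at 0.0718 FPKM. COX8C lay under the floor of 3 counts in every library of both groups, so a change in it was not detectable at this depth.

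In complex V the decreases lay mainly among the genes for subunit c and for small membrane subunits. Subunit c forms the rotating ring of ATP synthase and is encoded by ATP5MC1, ATP5MC2 and ATP5MC3, whose mature proteins are the same. ATP5MC1 (ENSG00000159199, chromosome 17, 48892765 to 48895871, plus strand) was at 34.2, 41.2 and 36.5 CPM in C1, C3 and C4 and at 16.7, 18.7 and 18.5 CPM in N1, N2 and N3. This corresponds to 48.1% of control and a log2 fold change of -1.06 (SE 0.08, edgeR adjusted p = 1.08e-08). ATP5MC2 (chromosome 12) had 288, 299 and 290 CPM against 199, 202 and 208 CPM, a log2 fold change of -0.53 (SE 0.05, edgeR adjusted p = 5.12e-08). ATP5MC3 (chromosome 2) had 129, 127 and 119 CPM against 133, 139 and 131 CPM, with all NFIC shRNA samples above all scrambled ones but no call (log2 fold change 0.11, edgeR adjusted p = 0.0913).

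The composition of the subunit c transcripts differed between the groups. As a share of the summed FPKM of the 3 genes, ATP5MC1 made up 13.5% ± 0.928 in scrambled and 8.85% ± 0.382 in NFIC shRNA samples. ATP5MC3 made up 17.4% ± 0.769 and 25.6% ± 0.898, and ATP5MC2, the most abundant of them per length, 69.1% ± 0.598 and 65.6% ± 0.915 (SD, n = 3). For none of the 3 shares did the groups overlap. The size of each share depends on the exon-union lengths, 2615 bases for ATP5MC1, 3996 for ATP5MC2 and 6780 for ATP5MC3.

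**Figure D2:**
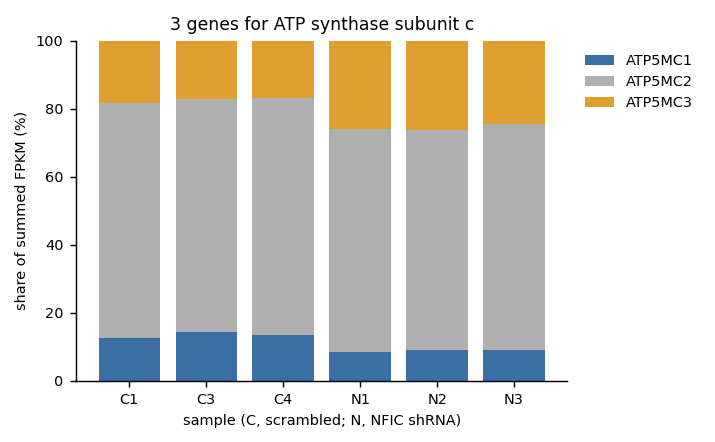
Share of ATP5MC1, ATP5MC2 and ATP5MC3 in their summed FPKM (y axis, percent) in each sample (x axis). The ATP5MC3 share lies between 16.9% and 18.3% in the scrambled samples and between 24.6% and 26.3% in the NFIC shRNA samples.

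Among the small membrane subunits of ATP synthase, ATP5ME (subunit e) was at 33.7, 33.3 and 32.1 CPM in scrambled and 17.4, 21.7 and 18.9 CPM in NFIC shRNA samples, which is a log2 fold change of -0.77 (SE 0.08, edgeR adjusted p = 4.31e-07). However, 61.3% of its exon bases lie opposite exons of MYL5, which had more counts (513 to 1120 against 359 to 820) and the same log2 fold change of -0.77, so the values of these genes cannot be told apart. ATP5MF (subunit f) fell from 80.5 ± 4.46 to 59.2 ± 4.27 CPM (log2 fold change -0.44, edgeR adjusted p = 1.30e-05). The readthrough gene ATP5MF-PTCD1 had counts above those of ATP5MF (1330 to 2293 against 1210 to 2107) and a log2 fold change of -0.42, whereas PTCD1, which holds 83.3% of its exon bases, was not called (-0.10). The readthrough gene is thus not a separate measurement. ATP5MD, the subunit also named ATP5MK in newer annotations, was higher (35.5 ± 1.80 to 40.7 ± 3.50 CPM, log2 fold change 0.20, edgeR adjusted p = 0.0282), a call that was lost without C1, without C4 or without N3 and when the replicate number was a block (adjusted p = 0.0563). Its exons cover MIR1307 (15.4% of their bases), which had 10 to 26 counts.

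The catalytic F1 head showed smaller changes. ATP5F1A and ATP5F1B, which encode the alpha subunit and the catalytic beta subunit, were not called, with log2 fold changes of -0.02 (SE 0.05) and 0.02 (SE 0.05). ATP5F1B was the most abundant nuclear member per length, at 349 ± 14.5 FPKM in scrambled and 358 ± 17.8 FPKM in NFIC shRNA samples. Of the 5 F1 genes only ATP5F1D, the delta subunit of the central stalk, was called (-0.25, edgeR adjusted p = 0.00316). In the peripheral stalk, which holds the head still, ATP5PF (0.27) and ATP5PB (0.16) were higher and ATP5PO (-0.20) lower. For ATP5PF, 34.4% of the exon bases lie opposite GABPA, itself higher (0.20), and the call of ATP5PB was lost without C1 (adjusted p = 0.0533). ATP5PO shares 15.5% of its exon bases with the same-strand AP000311.1, which was lower too (-0.17). Over the 18 complex V members tested, 7 (38.9%) were lower and 3 (16.7%) higher, against 30.3% and 29.6% of all genes tested. Under upper quartile normalization 9 were lower and 1 higher, where 33.9% of all genes were lower and 25.8% higher. The 7 lower members included the readthrough gene ATP5MF-PTCD1, which is not a separate measurement. ATP5MGL, a retrocopy with at most 1 count in any library, was not tested.

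**Figure D3:**
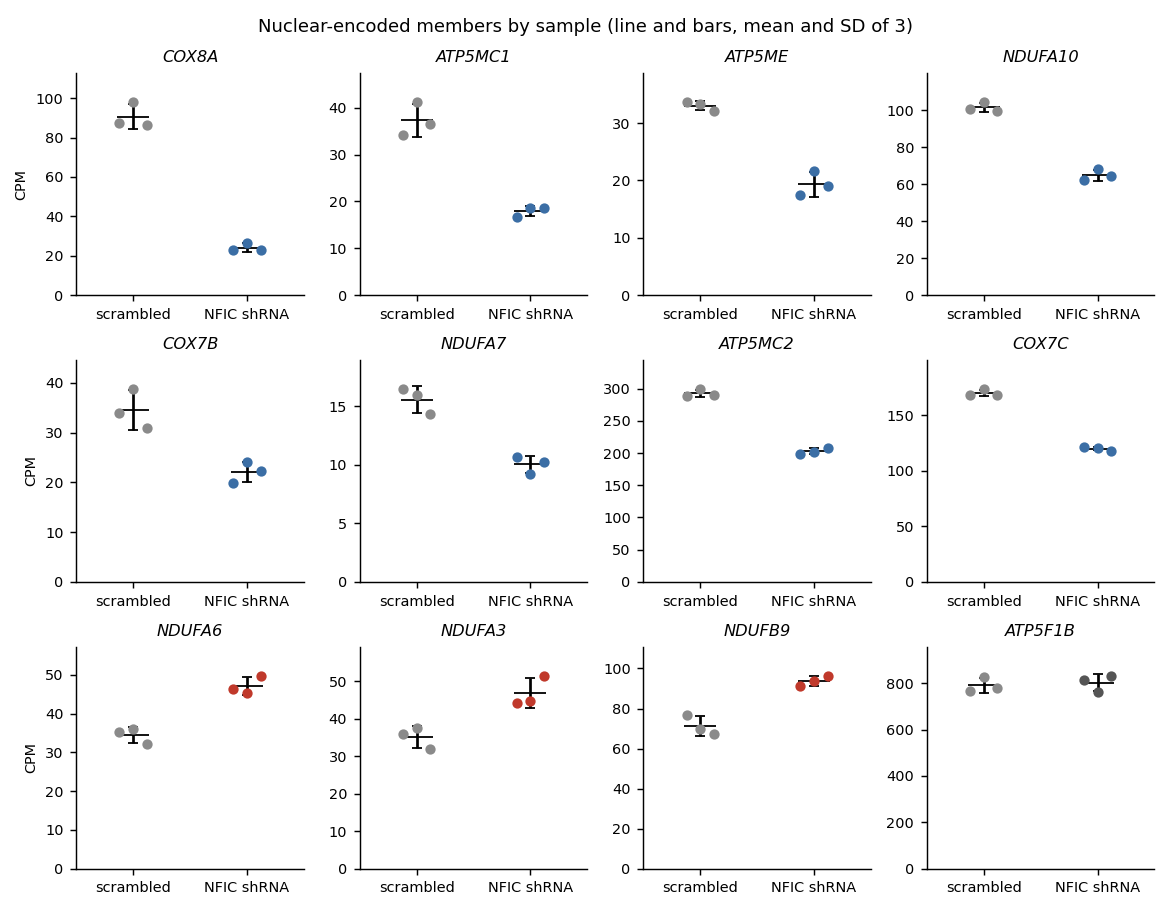
CPM (y axis, from 0) in each scrambled and NFIC shRNA sample for 12 nuclear members, with the mean and SD of 3 samples. COX8A drops from a mean of 90.6 to 24.1 CPM without overlap, whereas the values of ATP5F1B overlap between 760 and 831 CPM.

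Complex I, the NADH dehydrogenase, contained members that moved in opposite directions. Of its 36 nuclear members 9 (25.0%) were higher and 8 (22.2%) lower, against 29.6% and 30.3% of all genes tested. The other 19 were not called, and the median log2 fold change of the 36 was 0.08. Under upper quartile normalization 8 (22.2%) were higher and 10 (27.8%) lower, against 25.8% and 33.9% of all genes. Scaled by total counts 12 (33.3%) were higher and 7 (19.4%) lower, against 30.8% and 29.1% of all genes.

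The 4 members with the smallest adjusted p among the decreases were NDUFA10, NDUFV1, NDUFA7 and NDUFC1. NDUFA10 (chromosome 2), an accessory subunit of the membrane arm, was at 101, 104 and 99.3 CPM in scrambled and at 62.2, 68.0 and 64.3 CPM in NFIC shRNA samples, which is a log2 fold change of -0.65 (SE 0.06, edgeR adjusted p = 2.56e-08). NDUFV1 (chromosome 11), the core subunit that binds NADH and the flavin, was at 78.5, 87.8 and 80.4 CPM against 61.6, 61.8 and 54.4 CPM, a log2 fold change of -0.47 (SE 0.06, edgeR adjusted p = 7.09e-06). Neither showed overlap between groups. NDUFA7 fell from 15.6 ± 1.13 to 10.0 ± 0.722 CPM (-0.64, edgeR adjusted p = 2.88e-05). It shares exon bases with 2 genes that were lower too, 32.5% with the same-strand AC010323.1 (-0.69) and 4.89% with the opposite RPS28 (-0.88), a ribosomal protein gene with 3883 to 8745 counts. NDUFC1 fell from 33.0 ± 2.45 to 25.0 ± 1.41 CPM (-0.40, edgeR adjusted p = 0.000261), although 19.5% of its exon bases lie opposite NAA15, which was higher (0.39) and had 2026 to 3250 counts. A further 12.0% lie within the same-strand MGARP, with 7 to 19 counts.

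Increases in complex I were led by NDUFB9, NDUFA6 and NDUFA3. NDUFA6 (chromosome 22), an accessory subunit, was at 35.2, 36.0 and 32.1 CPM in scrambled and 46.4, 45.3 and 49.8 CPM in NFIC shRNA samples, which is a log2 fold change of 0.45 (SE 0.07, edgeR adjusted p = 2.10e-05). NDUFB9 (chromosome 8) rose from 71.2 ± 5.01 to 93.8 ± 2.43 CPM (0.40, edgeR adjusted p = 1.68e-05), and 12.1% of its exon bases lie opposite MTSS1, which had 69 to 107 counts and was not called (-0.18). NDUFA3 rose from 35.2 ± 2.83 to 46.9 ± 3.98 CPM (0.41, edgeR adjusted p = 0.000174), and 6.06% of its exon bases lie opposite TFPT, which was also higher (0.78). In each of these genes every NFIC shRNA sample exceeded every scrambled sample.

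Other calls in complex I were NDUFV3 (0.34), NDUFB4 (0.29), NDUFA9 (0.27), NDUFB8 (0.25) and NDUFA5 (0.16) on the higher side and NDUFB2 (-0.36), NDUFA8 (-0.34), NDUFS7 (-0.26) and NDUFC2 (-0.18) on the lower. Of these the calls of NDUFA5 (without C3, C4 or N1), NDUFC2 (without C3, N1 or N2) and NDUFS7 (without N3) were lost when a sample was left out. The call of NDUFC2 was also lost in DESeq2 (adjusted p = 0.126) and under the replicate block (adjusted p = 0.0731).

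Several of these genes share exon bases with a neighbour. NDUFS7 lies opposite AC005329.1 for 36.1% and AC005329.3 for 15.3% of its exon bases, both lower (-0.27 and -0.37). NDUFB8 shares 33.8% with the same-strand AL133352.1, which was not called (0.07), and 16.3% with the opposite HIF1AN, which was higher (0.26). For NDUFB2, 27.9% lie opposite BRAF, which was not called (-0.07). NDUFC2 shares 18.6% with the readthrough gene NDUFC2-KCTD14 (-0.19), and NDUFA9 shares 10.6% with the same-strand AC005833.1, which was higher (0.30).

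Other members of complex I showed no call. NDUFA2 and NDUFB7 lay nearest 0, each with a log2 fold change of 0.01 (SE 0.09 and 0.08). NDUFS5, rank 4 by FPKM among nuclear members (152 ± 10.2 FPKM in scrambled samples), was not called (-0.11, edgeR adjusted p = 0.161).

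All 4 subunits of complex II, succinate dehydrogenase, were called, in opposite directions, where 59.9% of all genes tested were called. Under upper quartile normalization 1 was higher and 1 lower (25.0% each), against 25.8% and 33.9% of all genes. SDHA, the flavoprotein that oxidizes succinate, was at 59.6, 69.3 and 57.3 CPM in scrambled and 70.1, 71.7 and 73.9 CPM in NFIC shRNA samples (log2 fold change 0.21, SE 0.07, edgeR adjusted p = 0.0125). SDHB, the iron-sulfur subunit, rose from 74.0 ± 4.34 to 84.9 ± 6.46 CPM (0.20, edgeR adjusted p = 0.0136). The lowest NFIC shRNA values of both genes, 70.1 and 79.2 CPM, lay just above the highest scrambled values, 69.3 and 78.9 CPM in C3.

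The membrane anchors SDHC and SDHD moved apart. SDHC was at 119, 120 and 125 CPM against 142, 143 and 139 CPM (0.22, SE 0.05, edgeR adjusted p = 0.00105), whereas SDHD was at 66.7, 67.9 and 62.4 CPM against 59.8, 53.8 and 56.7 CPM (-0.21, SE 0.06, edgeR adjusted p = 0.00631). The calls of SDHA and SDHB were lost without C1 or without C4, with adjusted p up to 0.096 and 0.0822. The calls of SDHC and SDHD held in all 6 fits without a sample. SDHD shares 11.4% of its exon bases with the same-strand AP002884.2, which was not called (-0.10). SDHA shares 21.7% of its exon bases with AC021087.5, which was not called (0.10), and it has near-identical pseudogene copies that can take up its reads.

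Complex III, the cytochrome bc1 complex, had 4 of its 10 nuclear members lower and 1 higher, against 30.3% and 29.6% of all genes tested. Under upper quartile normalization 5 were lower and 0 higher, where 33.9% of all genes were lower and 25.8% higher. UQCRC2 (chromosome 16), a core protein of the matrix side, was at 155, 166 and 158 CPM in scrambled and 131, 130 and 132 CPM in NFIC shRNA samples (-0.29, SE 0.05, edgeR adjusted p = 7.41e-05). UQCRB was at 140, 139 and 136 CPM against 115, 109 and 116 CPM (-0.29, SE 0.05, edgeR adjusted p = 8.35e-05). CYC1, the cytochrome c1 heme protein, fell from 82.7 ± 4.92 to 68.3 ± 4.77 CPM (-0.28, edgeR adjusted p = 0.00123). None of these 3 genes showed overlap.

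UQCRH, the hinge protein and the nuclear member with rank 2 by FPKM, fell from 265 ± 8.02 to 236 ± 4.94 CPM (-0.16, edgeR adjusted p = 0.00688), a call lost without N1 (adjusted p = 0.0532). Its retrocopy UQCRHL was at 19.1 ± 1.65 and 17.7 ± 1.86 CPM and was not called (-0.10), and reads of the near-identical pair may have been split between them. UQCR11 was higher by 0.17 (edgeR adjusted p = 0.04), but its groups overlapped and the call was lost in 4 of the 6 fits without a sample (without C1, C4, N2 or N3) and in DESeq2 (adjusted p = 0.0577). The same-strand AC005943.1, which was not called (0.02), covers 235 of its 2137 exon bases. UQCRC1 and UQCRQ lay nearest 0, with 0.03 and 0.04. CYCS, the mobile carrier between complexes III and IV, was at 153, 165 and 151 CPM against 130, 121 and 126 CPM, a log2 fold change of -0.32 (SE 0.05, edgeR adjusted p = 5.41e-05) with no overlap.

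Complex by complex, the median log2 fold changes of the nuclear members were 0.08 in complex I, 0.20 in II, -0.08 in III, -0.08 in IV and -0.06 in V, beside -0.01 over all genes tested. When a sample was left out these medians ranged from 0.04 (without C4 and without N3) to 0.09 in complex I, from 0.17 to 0.22 in II, from -0.11 to -0.04 (without N1) in III, from -0.08 to -0.05 in IV and from -0.10 (without N3) to -0.02 (without N2) in V. The summed CPM of complex II was higher in every NFIC shRNA sample (323 ± 11.4 to 355 ± 7.29). The sums of complex III (992 ± 28.6 to 900 ± 21.5) and complex IV (1365 ± 52.2 to 1274 ± 42.3) were lower in every such sample, whereas those of complexes I and V overlapped between groups. For complex IV the groups nearly met, at 1323 CPM in C4 and 1315 CPM in N3. COX8A alone fell from 90.6 to 24.1 CPM within that sum, a large part of its difference, so the sum does not show a decrease across complex IV. These differences between complexes were not tested, since members were chosen with results of these data known.

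Levels of the mitochondrially encoded members far exceeded those of the nuclear ones. In scrambled samples they ranged from 931 FPKM for MT-ND5 to 6608 FPKM for MT-ATP8, against 349 FPKM for the highest nuclear member. The value of the short MT-ATP8 gene is a special case, since 22.2% of its length overlaps MT-ATP6, and reads that extend past a short gene count in full for it. The 13 genes took up 2.90% ± 0.0806 of all counts in scrambled and 3.21% ± 0.169 in NFIC shRNA samples, and the 85 nuclear genes 0.755% ± 0.023 and 0.741% ± 0.0158.

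The genes MT-ND6, MT-CO3, MT-ND5, MT-CO1, MT-CYB and MT-ATP6 were called higher. MT-ND6, the only member encoded on the light strand, was at 594, 627 and 623 CPM in C1, C3 and C4 and at 712, 741 and 767 CPM in N1, N2 and N3 (0.27, SE 0.05, edgeR adjusted p = 0.000154). Since the library kit is not described as strand-specific, reads of opposite-strand precursors over MT-ND6 cannot be told apart from its own. MT-CO3 was at 2871, 3034 and 3003 CPM against 3246, 3630 and 3405 CPM (0.21, SE 0.05, edgeR adjusted p = 0.00267), and MT-ND5 at 1675, 1751 and 1696 CPM against 1849, 1983 and 2013 CPM (0.19, SE 0.05, edgeR adjusted p = 0.00332). In all 3 every NFIC shRNA sample lay above every scrambled sample, and all 3 calls held in every fit without a sample.

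Calls of the other 3 genes depended on single libraries. MT-CO1, the catalytic subunit of complex IV, was at 7391, 7856 and 7435 CPM against 7944, 8984 and 8762 CPM (0.18, edgeR adjusted p = 0.00994) and was not called without C1 or without C4 (adjusted p up to 0.0654). MT-CYB, cytochrome b, was at 1250, 1288 and 1230 CPM against 1303, 1471 and 1413 CPM (0.15, edgeR adjusted p = 0.0189) and MT-ATP6 at 2717, 2879 and 2770 CPM against 2909, 3141 and 3049 CPM (0.12, edgeR adjusted p = 0.0455). Both were not called without C1, C4 or N2, with adjusted p up to 0.0991 and 0.204, and MT-ATP6 was not called with the replicate number as a block either (adjusted p = 0.0735). The groups of these 3 genes did not overlap, but N1 lay close to the highest control, C3, in each.

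Not called were MT-CO2 (0.12, edgeR adjusted p = 0.0964), MT-ATP8 (0.11), MT-ND4L (0.10), MT-ND3 (0.09), MT-ND4 (0.08), MT-ND1 (-0.04) and MT-ND2 (-0.06). MT-ND1 was at 2030, 2109 and 1978 CPM against 1878, 2087 and 1988 CPM, and MT-ND2 at 1160, 1194 and 1148 CPM against 1102, 1164 and 1105 CPM, with overlap in both. Along the mitochondrial genome MT-ND1 (3307 to 4262 on chromosome M) and MT-ND2 (4470 to 5511) come first, after both rRNA genes, and they were the only members with a negative log2 fold change. The rRNA genes MT-RNR1 and MT-RNR2 had log2 fold changes of -0.03 and -0.08 and were not called. These transcripts share a precursor and a library, so the genes are not independent of each other.

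**Figure D4:**
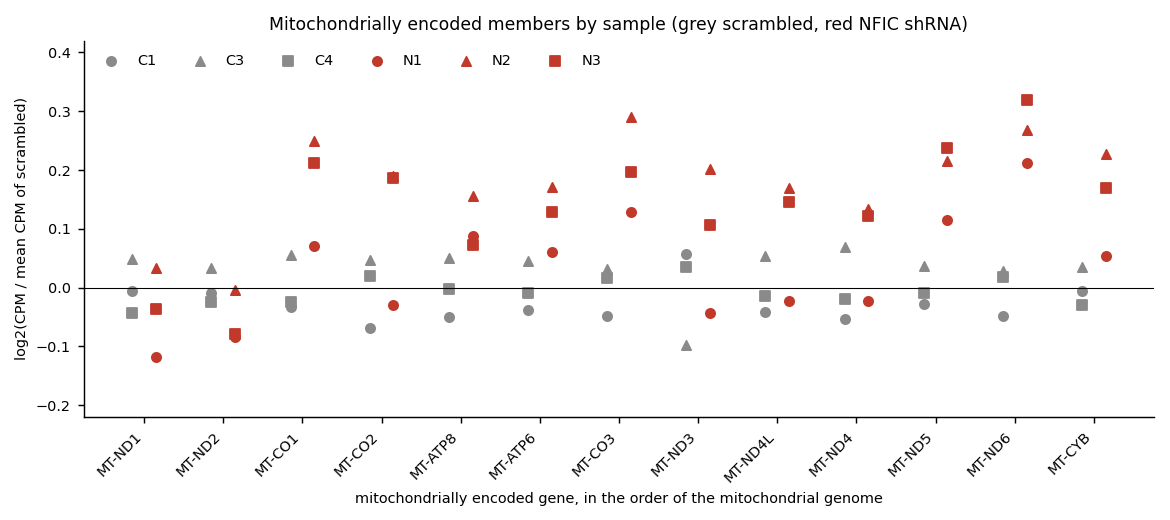
Log2 ratio of each sample's CPM to the scrambled mean (y axis) for the 13 mitochondrially encoded genes in genome order (x axis), with C1, C3 and C4 in grey and N1, N2 and N3 in red. For MT-ND6 the NFIC shRNA samples, at 712 to 767 CPM, all lie above the scrambled ones, whereas for MT-ND1 and MT-ND2 the groups overlap.

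Nuclear pseudogene copies of mitochondrial genes were counted apart from the members. MTND2P28 was at 299 ± 4.61 CPM in scrambled and 297 ± 44.5 CPM in NFIC shRNA samples, and MTATP6P1 at 95.9 ± 9.50 and 89.4 ± 18.2 CPM, and neither was called. N1 was the lowest NFIC shRNA sample for both pseudogenes, as for 12 of the 13 mitochondrial members.

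Relating both genomes, the ratio of summed mitochondrial to summed nuclear CPM was 3.78, 3.84 and 3.91 in C1, C3 and C4 and 4.14, 4.62 and 4.25 in N1, N2 and N3. All NFIC shRNA samples lay above all scrambled samples, with means of 4.34 ± 0.247 and 3.84 ± 0.0626, or 113% of control. The difference was not tested. The ratio needs no normalization between samples, but it is set mainly by abundant genes. The mitochondrial sum was 29212 ± 840 CPM in scrambled and 31957 ± 1758 CPM in NFIC shRNA samples, and the nuclear sum 7604 ± 229 and 7369 ± 232 CPM, both with overlap between the groups. On the deposited FPKM scale the ratio was 12.1 ± 0.264 and 14.0 ± 0.771.

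**Figure D5:**
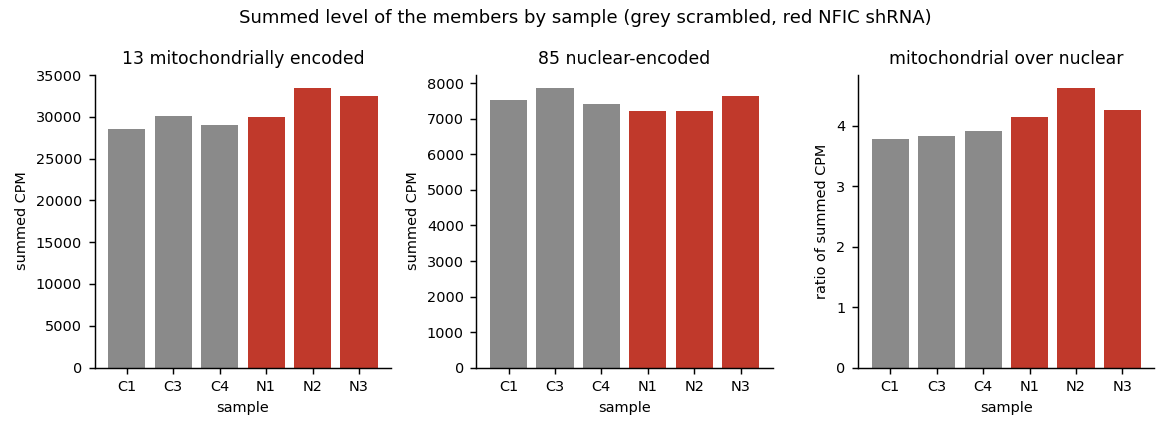
Summed CPM of the 13 mitochondrially encoded and the 85 nuclear-encoded members and the ratio of both sums (y axes, from 0) in each sample (x axes). The ratio lies between 3.78 and 3.91 in the scrambled samples and between 4.14 and 4.62 in the NFIC shRNA samples.

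Promoter sequences were searched for letters bound by known regulators of respiratory genes, because nuclear members are known to share such elements. RefSeq windows of GRCh38.p14, running from 250 bases before to 50 bases after a gene's start, matched 67 of the 85 nuclear members by symbol. The core of the NRF1 palindrome, GCATGCGC, was found on either strand for 15 of these 67 (22.4%), against 3.68% of all 27305 genes with a window. The ETS or GABP letters CCGGAAG were found for 21 (31.3%, against 12.2% of all genes), the YY1 letters AAGATGGCG for 9 (13.4% against 2.14%), the SP1 or KLF letters GGGCGG for 43 (64.2% against 48.3%) and the E-box CACGTG for 7 (10.4% against 8.77%). A single arm of the nuclear factor I palindrome, TTGGC, occurred for 36 (53.7% against 50.6%), and the full palindrome of nuclear factor I for 0, against 0.0366% of all genes. Single arms lie within full palindromes, and the other motifs may overlap each other. The genes with a window were not limited to protein-coding or expressed ones. Higher shares among the members thus need not be particular to respiratory genes.

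The following windows show the NRF1 core (capitals) with flanking bases on the gene's own strand, before the start, for members that moved in either direction.
CYCS, chr7:25125414-25125437, minus strand: gctcgccaGCATGCGCgcgcaggt
ATP5MC2, chr12:53676108-53676131, minus strand: cgggtcacGCATGCGCtgagcctt
SDHD, chr11:112086757-112086780, plus strand: gtgtttgcGCATGCGCgacgggtg
SDHB, chr1:17054217-17054240, minus strand: ccaaatggGCATGCGCcgctactg
NDUFA6, chr22:42090923-42090946, minus strand: gtagatgaGCATGCGCagcaccca
Of the 15 members with this core, 6 were higher and 6 lower, where 29.6% of all genes tested were higher and 30.3% lower. The same letters thus stood before genes that moved apart, such as the lower CYCS and ATP5MC2 and the higher SDHB and NDUFA6. The median log2 fold change was -0.13 with the core and 0.03 for the members without it.

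The next windows show in capitals the E-box, a site read by MYC and MAX among other factors, and the ETS letters before COX8A. The E-box was picked with the lower MYC level of these samples known, and a role of MYC was not tested.
ATP5ME, chr4:674425-674446, minus strand: gtgcgcctCACGTGacgtcacc
NDUFA7, chr19:8321482-8321503, minus strand: agaggagtCACGTGcttcgggg
NDUFS7, chr19:1383712-1383733, plus strand: gcggccccCACGTGcgcactcc
ATP5PB, chr1:111449233-111449254, plus strand: gcaaacccCACGTGgtgcacct
UQCR11, chr19:1605636-1605657, minus strand: cgccagacCACGTGgccagaaa
COX8A, chr11:63974594-63974616, plus strand: ctccagaaCTTCCGGccagcgca
The 7 members with an E-box were ATP5MC1, ATP5ME, NDUFA7 and NDUFS7, which were lower, ATP5PB and UQCR11, which were higher, and NDUFA11, which was not called. Their median log2 fold change was -0.26, beside 0.04 for members without the letters. It rests on 7 genes, of which ATP5ME and NDUFA7 share exon bases with other lower genes, as given above. The ETS letters were held by 5 higher, 5 lower and 11 uncalled members (median 0.05 with and -0.02 without them). For YY1 the members were 5 higher, 2 lower and 2 uncalled (0.20 with, -0.01 without). For SP1 or KLF they were 10, 11 and 21 (0.01 and 0.05), and for the single arm of nuclear factor I 9, 10 and 15 (0.02 and 0.04). Of all genes tested 29.6% were called higher and 30.3% lower, and differences between motifs were not tested. A match is a description of the sequence and not a measured binding site.

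Regulators of these genes were examined through a list of 22 genes in the table, of which 7 were higher and 7 lower (31.8% each, against 29.6% and 30.3% of all genes tested), with a median log2 fold change of 0.01 beside -0.01 over all genes. Under upper quartile normalization 6 were higher and 10 lower, where 25.8% of all genes were higher and 33.9% lower. MYC, a transcription factor that drives growth and biosynthesis, fell from 225 ± 8.11 to 85.7 ± 8.23 CPM (log2 fold change -1.39, SE 0.06, edgeR adjusted p = 2.37e-11), and its partner MAX from 88.9 ± 1.75 to 53.3 ± 3.17 CPM (-0.74). PPARGC1A, a coactivator of mitochondrial biogenesis, fell from 13.3 ± 1.02 to 9.40 ± 0.611 CPM (-0.50, edgeR adjusted p = 0.00042), and HIF1A fell as well (-0.41). GABPA (0.20) and GABPB2 (0.55), subunits of the ETS factor GABP, YY1 (0.26) and PRKAA1 (0.53), the catalytic subunit of AMP-activated kinase, rose. GABPA, with 1556 to 2041 counts, shares 692 exon bases with the opposite ATP5PF, which was higher too (0.27). Reads over these bases cannot be told apart. NRF1 (0.07), ESRRA (-0.19) and PPARGC1B (-0.19) were not called, the latter 2 close to the threshold (edgeR adjusted p = 0.051 and 0.0549). PPRC1 was called lower (-0.16) at an edgeR adjusted p of 0.0497 and not called in DESeq2.

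Genes that maintain and express mitochondrial DNA were lower for 17 of 45 (37.8%) and higher for 11 (24.4%), against 30.3% and 29.6% of all genes tested, with a median log2 fold change of -0.08 beside -0.01 over all genes. TFAM, which packages and transcribes mitochondrial DNA, fell from 64.0 ± 2.54 to 55.2 ± 0.639 CPM (-0.21, edgeR adjusted p = 0.00413). The mitochondrial RNA polymerase POLRMT (0.08), its factor TFB2M (edgeR adjusted p = 0.996) and LRPPRC (-0.09), which stabilizes mitochondrial mRNAs, were not called. TOP1MT, a mitochondrial topoisomerase (-1.17), REXO2, an oligoribonuclease (-1.12), and FASTKD1 (-0.63) were lower, and HSD17B10, a subunit of mitochondrial RNase P that rose from 11.8 ± 1.26 to 35.8 ± 4.54 CPM (1.60), its partner PRORP (0.34) and the DNA polymerase POLG (0.29) were higher.

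Assembly factors, which build the complexes but are no part of them, were lower for 18 of 53 (34.0%) and higher for 8 (15.1%), where 30.3% of all genes tested were lower and 29.6% higher, and their median log2 fold change was -0.10 (all genes, -0.01). LYRM7 (-0.63) and UQCC1 (-0.54), which act in complex III assembly, and COA7 (-0.48), of complex IV, were lower. SDHAF2, which attaches flavin to SDHA, rose from 20.2 ± 1.06 to 35.0 ± 2.48 CPM (0.80), and SCO1 (0.41) and ATPAF1 (0.30) rose as well.

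Upstream of the respiratory chain, 9 of 19 genes of the tricarboxylic acid cycle and pyruvate dehydrogenase were lower (47.4%, against 30.3% of all genes tested) and 3 higher (15.8%, against 29.6%), with a median log2 fold change of -0.14 (all genes, -0.01). CS, citrate synthase, fell from 310 ± 6.10 to 203 ± 5.54 CPM (-0.61), and DLAT (-0.53) and PDHB (-0.45) of pyruvate dehydrogenase fell with it, while PDHX (0.43), SUCLA2 (0.23) and SUCLG2 (0.20) rose. The call of SUCLG2 was lost without C1 or without C4. Of the 38 protein import genes, with a median of -0.06 (all genes, -0.01), 16 (42.1%, against 30.3%) were lower, among them TOMM7 (-0.79), TIMM13 (-0.69) and TIMM50 (-0.60), and 11 (28.9%, against 29.6%) higher, among them TIMM17A (0.45), DNAJC15 (0.44) and TOMM6 (0.39).

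Of 26 related genes outside the name rule, 25 were tested, 13 (52.0%) were lower and 3 (12.0%) higher, against 30.3% and 29.6% of all genes tested, and the median log2 fold change was -0.17 (all genes, -0.01). CHCHD10, a protein of the intermembrane space, fell from 40.3 ± 1.77 to 11.9 ± 2.84 CPM (-1.77, SE 0.13). ATP5IF1, the inhibitor of ATP synthase hydrolysis, fell from 39.6 ± 0.965 to 19.6 ± 1.20 CPM (-1.02, SE 0.07), and SLC25A6, an ADP/ATP carrier, from 495 ± 9.75 to 345 ± 10.4 CPM (-0.52). ETFDH (0.55) and SQOR (0.64), which feed electrons to ubiquinone from other sources, and ETFB (0.34) rose, the last of these not called without C4. These related genes were described because they act with the members, and their lists were chosen with results of these data known.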

How the data were processed

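Bulk mRNA of sorted THP-1 cells was sequenced 4 days after infection in 3 scrambled and 3 NFIC shRNA samples. Per the labels and methods, the authors used Trim Galore for trimming, STAR for mapping (GRCh38) and featureCounts for counting reads per gene. The counting used an Ensembl gene annotation. The setting for reads over more than 1 gene, and whether marked duplicates were removed, are not given in the sources used here. COX6A1 (1269 to 1730 counts) and the overlapping same-strand AL021546.1 (1268 to 1729) had nearly the same counts, so reads appear to count for each overlapping gene. The authors deposited counts per gene without normalization, a normalized signal (counts divided by DESeq2 size factors) and FPKM made from these and an exon-union gene length. Another 6 columns hold the authors' own comparison and mean and were not used. No UMIs were used, so counting limits cover counting error only.

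Counts were tested with edgeR 4.0.16 in R 4.3.3 (TMM, filterByExpr, robust dispersions, quasi-likelihood test, no replicate block), with Benjamini-Hochberg adjustment over 19182 genes and a threshold of 0.05. CPM were scaled by TMM factors. Values are mean ± SD, and medians of lists stand beside those of all genes. The common biological coefficient of variation was 0.0606. On simulated counts for this comparison (19182 genes, 200 changed, 5 draws), edgeR recovered on average 83.4% of genes changed by a log2 fold change of 1 and 63.4% of those changed by 0.5, and 5.19% to 10.5% of its calls were false. In the data 11486 genes were called, far more than the 200 changed in the simulation, so these rates need not hold for the data. Replicates of a group differed by more than counting noise (chi-square per degree of freedom 1.99 to 7.91), so none was taken as a repeat deposit. Members, lists and motifs were chosen with earlier results of these data known. Named genes were NFIC, all mitochondrial members, up to 4 called members in each direction with the smallest adjusted p in each complex, isoform sets, the 5 nuclear members highest by FPKM, members not tested or nearest 0, and for each list up to 3 called genes in each direction plus central regulators. Other members were named after their values were seen, to account for the calls. In complex I, 1 called member is counted but not reported here. Gene positions came from GENCODE release 44 and promoters from RefSeq. Alternatives were other normalizations, DESeq2 1.42.0, limma 3.58.1 on log2(signal + 1), other filters, blocks, samples left out and other member sets.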

Additional observations from a re-analysis of the deposited data

How the results depend on the processing

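The direction of NFIC held in every alternative, and its log2 fold change lay between -1.04 and -0.93 when a sample was left out. No result reversed. At an added log2 fold change of 0.5, 6442 genes were called instead of 11486, the nuclear members called were 0 higher and 8 lower, and the mitochondrial members called higher were 0. The lists then held 1 higher and 6 lower for assembly factors, 1 and 5 for mitochondrial DNA expression, 2 and 3 for regulators, 0 and 2 for the tricarboxylic acid cycle, 0 and 6 for import, and 8 lower among related genes, as fewer genes meet a stricter rule. Upper quartile normalization, which lowered the median of all genes by 0.06, left 3 mitochondrial members higher and moved the medians of complexes I to V to 0.02, 0.15, -0.14, -0.13 and -0.12, that of all nuclear members to -0.05 and that of mitochondrial members to 0.06. The cause was not tested. Without C3 and N3 together, 5 related genes were higher instead of 3.

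When a sample was left out, 3 to 9 mitochondrial members were higher, with 3 left without C1 or without C4, and 12 to 20 nuclear members were higher and 22 to 28 lower. The ranges were 7 to 13 for mitochondrial DNA expression genes higher and 2 to 5 for related genes higher. Of the 18 nuclear members called higher 11 kept that call in all 6 such fits, of the 25 called lower 21, and of the 6 mitochondrial ones 3. The median of nuclear members, near 0, took either sign (-0.02 to 0.05), and that of mitochondrial members ranged from 0.09 to 0.16. The log2 change of the ratio of mitochondrial to nuclear sums, 0.18, ranged from 0.13 to 0.21.

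Correlations of deviations were small between samples with the same replicate number in the labels (0.0563, -0.0862 and -0.0446). By the numbers in the sample titles they were 0.0563 for C1 and N1 and 0.145 for C3 and N3. C4 and N2, whose titles share no number, remained as a pair (0.0267). C3 and N3 also lay together on the second principal component (-18 and -20.5), and whether they were handled together is not given. With the label number as a block 10983 genes were called and with the pairs by title, C4 set with N2, 12099. Nuclear members were then 17 or 23 higher and 23 or 28 lower, and mitochondrial members 5 or 9 higher. For COX8C and ATP5MGL, with at most 2 counts and 1 count in a library, no change was detectable at this depth.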
